A study of Mus musculus with 2 samples.

Results

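The axon guidance ligands and receptors described here are the semaphorins of classes 3 to 7, the plexins and neuropilins that bind them, the ephrins and Eph receptors, the Slits with their Robo receptors, and the netrins with their Unc5 receptors. Members were chosen by symbol alone, and 67 of the 19070 genes in the deposited feature list matched. One coronal brain section was measured 3 days and one 28 days after controlled cortical impact (CCI), a focal traumatic brain injury produced by a piston driven into the right parietal cortex. Both groups, 3 days CCI and 28 days CCI, were male C57Bl6 mice (C57BL/6J in the study's methods) that were 3 months old when injured. Per the methods, surgery was done under ketamine and medetomidine, with buprenorphine and bupivacaine for pain, and no further treatment is stated. There was 1 animal per time point, and no sham section was analysed here. The reference for every injury value is therefore the other hemisphere of the same animal, which is not uninjured tissue of another mouse. Transcripts were counted with gene-specific probes as unique molecular identifiers (UMIs) in square bins of 16 µm, and a bin can hold parts of several cells.

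Axon guidance genes encode secreted and membrane-bound cues that attract or repel growing axons, together with the receptors that read them. Semaphorins act through plexins, and most class 3 semaphorins need a neuropilin as co-receptor. Ephrins are tethered to the membrane and signal through Eph receptors on the neighbouring cell, Slits act through Robo receptors, and netrins act through Dcc and the Unc5 receptors. In the adult brain the same genes are used by vessels, meninges, glia and immune cells, and several semaphorins, ephrins and Slits are known as inhibitors of axon growth around central nervous system injuries.

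The 3 days section held 120615873 UMIs in 121967 bins and the 28 days section held 82422389 UMIs in 105589 bins, with medians of 836 and 596 UMIs per bin. The members took 0.341% of all UMIs at 3 days and 0.335% at 28 days. The lesion zone of a section was defined as the tissue where 6 phagocyte genes exceeded their 99th percentile on the opposite side, and it was compared with its mirror image across the column that divides the sides. The zone held 8384 bins at 3 days and 13559 bins at 28 days, against 8555 and 12447 bins in the mirror zone. Since phagocyte genes placed the zone, a member that phagocytes express is high there by construction. Levels are given as UMIs per 1000000 UMIs of the same area (CPM), which are compared within a gene and not between genes because probes differ in number and efficiency. Differences are log2 ratios of CPM, zone over mirror zone, each with a 95% interval for counting error only. A member was called higher or lower where the ratio was at least 2-fold and the interval excluded no difference. With 1 section per time point there is no test and no p-value, and differences between animals are not covered.

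The tissue that the zone and the mirror zone held was unlike. The 6 genes of the excitatory neuron list had a median log2 ratio of -2.19 at 3 days and -1.39 at 28 days, while the phagocyte list stood at 2.03 and 4.42 and the fibroblast list at 2.67 and 2.71. All 6 oligodendrocyte genes were called higher at 3 days, with a median of 1.55, and none at 28 days, with a median of 0.03. Of the 5 endothelial genes, 4 were called higher at 3 days (median 1.79) and none at 28 days (median 0.56). White matter tiles made up 55.7% of the zone and 29.3% of the mirror zone at 3 days, and 53.3% and 32.2% at 28 days. At 3 days the hippocampus held 0.203% of the zone and 17.8% of the mirror zone, the thalamus 0.692% and 18.9%, and the striatum 22.2% and 0%. In the 28 days section the hippocampus held 2.15% and 4.50%, the thalamus 25.9% and 38.0%, and the striatum 7.99% and 13.4%. The part of these differences in the members' ratios was not tested. The mirror zone at 3 days may also be offset, since a symmetry axis fitted to the section lay 288 µm from the dividing column, against -32 µm at 28 days. The axis was tilted by 1 degree at 3 days and by 2 degrees at 28 days, so parts of the 28 days mirror zone may be offset too. The choroid plexus list turned with the axis. All 6 of its genes were called lower in the zone at 3 days (median -1.19) and 3 at 28 days (median -1.05), but across the fitted axis 4 and 2 were called higher (medians 1.47 and 0.80). In such areas fewer cells of a type and less RNA per cell cannot be told apart.

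In the lesion zone the members moved in both directions, with most EphA receptors, Slits and Unc5 receptors lower at 3 days and the B plexins, Sema3d and Sema4d higher. At 3 days 66 members had enough UMIs. Of these, 15 were called higher, where the background was 17.2% of all genes, and 22 were called lower, where the background was 8.71%. The median ratio of the members was -0.44, against 0.13 over all genes. At 28 days 7 of 66 were called higher (background 16.3%) and 14 lower (background 8.05%), with a median of -0.38 against 0.00 over all genes. The share of members called lower was above the background at both times, and the share called higher was above it at 3 days, with 22.7% of the members, and below it at 28 days, with 10.6%. The members called lower at both times were Efna3, Epha3, Epha4, Epha6, Epha7, Epha8, Epha10, Sema3e, Sema5a, Slit1, Slit3 and Unc5a. Plxnb2, Sema3d and Sema4d were called higher at both. These ratios are shares of all UMIs, and the zone held fewer UMIs per bin than its mirror, 602 against 935 at 3 days and 528 against 642 at 28 days. Counted per bin instead, all ratios shifted by -0.64 at 3 days and -0.28 at 28 days, which left 6 members higher (background 8.88%) and 35 lower (background 23.9%) at 3 days, and 3 higher (background 12.7%) and 24 lower (background 13.9%) at 28 days. The share of members called higher at 3 days was then 9.09%, near the background. Counted so, Sema3d was still called higher at both times, Plxnb2 at 28 days alone and Sema4d at neither. Of the B plexins, Plxnb3 alone kept its higher call at 3 days. All lower calls of both times were kept.

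The calls at 3 days depended on where the zone was mirrored and on which part of it was read. Mirrored across the fitted axis, 11 members were called higher (background 17.8%) and 18 lower (background 8.23%) at 3 days, among them 9 of the 15 higher and 15 of the 22 lower ones above. The share called higher was then 16.9%, slightly below the background, while the share called lower stayed above it, at 27.7%. At 28 days 8 were called higher (background 16.8%) and 15 lower (background 7.67%), among them 7 of 7 and 12 of 14. Of the lower calls lost at 3 days, Sema6b stood at -0.99 and Efna3 at -0.88, just short of 2-fold, Epha3 at -0.78, Unc5c at -0.72 and Robo1 at -0.69, while Slit3 (-0.27) and Sema5a (-0.10) had intervals that held 0. Of the higher calls lost, Ntn4 stood at 0.96, Sema4d at 0.91, Sema4c at 0.86, Unc5b at 0.84, Plxnd1 at 0.83 and Efnb3 at 0.57. Nrp2 and Sema3b became higher and Sema3a, Ephb6 (-1.27) and Ntn5 (-2.16) lower at 3 days. With the zone split at the median column of its bins, 10 of the 15 higher members were past the same limits in the lateral part and all 15 in the medial part. Of the 22 lower members 8 were past them laterally and 18 medially, and Epha3 and Robo1 had lateral ratios above 0. At 28 days 11 of 14 lower members were past them in each part. These members were chosen by the whole zone, which holds both parts. The share of all genes past the limits in each part was not counted.

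**Figure D1:**
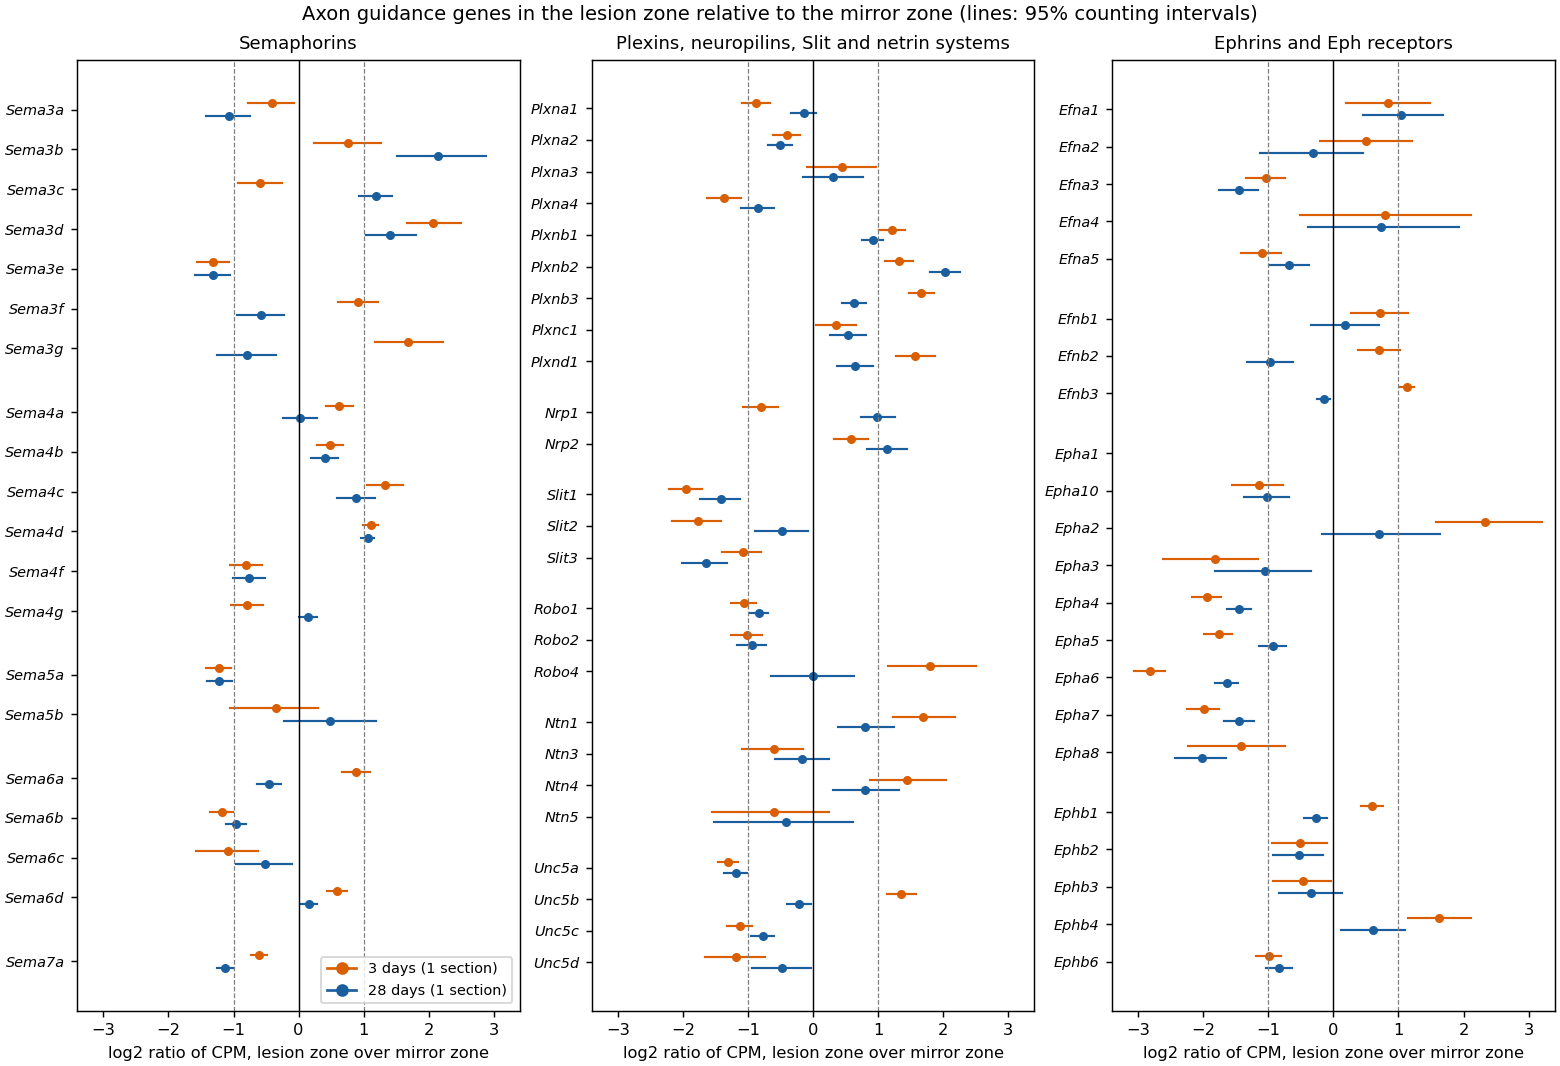
Log2 ratio of CPM, lesion zone over mirror zone, for the members with at least 20 UMIs over both areas, at 3 days (orange) and 28 days (blue). Points are 1 section each, lines are 95% counting intervals and dashed lines mark 2-fold. The EphA receptors apart from Epha2 lie left of 0 at both times, and Sema3c lies on opposite sides of 0 at the 2 times.

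Among the class 3 semaphorins, the secreted ligands of the family, neighbouring genes behaved differently. Sema3d, Sema3a, Sema3e and Sema3c lie within 5.35 Mb of chromosome 5 (12383161 to 17730268, GRCm38.p6). Sema3d was called higher and Sema3e lower at both times, and Sema3c changed sides between the times, so the 150 bases before the RefSeq start site of these 3 are shown, 5′ to 3′ on the plus strand with GC boxes (GGGCGG on either strand) in capitals. The windows are chr5:12383016-12383165, chr5:14025126-14025275 and chr5:17574666-17574815. The Sema3d window ends just past the outermost gene start of 12383161, since the start site used lies inside the gene.
Sema3d: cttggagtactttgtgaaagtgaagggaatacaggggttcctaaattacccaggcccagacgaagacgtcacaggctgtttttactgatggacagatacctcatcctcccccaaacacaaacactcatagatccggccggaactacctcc
Sema3e: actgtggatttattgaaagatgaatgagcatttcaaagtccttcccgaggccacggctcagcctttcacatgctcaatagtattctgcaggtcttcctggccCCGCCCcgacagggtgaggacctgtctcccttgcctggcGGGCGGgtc
Sema3c: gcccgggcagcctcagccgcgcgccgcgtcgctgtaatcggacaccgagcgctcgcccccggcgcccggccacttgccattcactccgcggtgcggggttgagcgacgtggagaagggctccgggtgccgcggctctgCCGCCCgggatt
Their GC content was 49.3%, 56.0% and 75.3%, against a median of 54.0% over 32851 promoter windows of the same length. The Sema3e window held 2 GC boxes, the Sema3c window 1 and the Sema3d window none, and 28.6% of all windows held at least 1. None of the 3 held a TATA box (TATAAA, in 7.57% of windows), an AP-1 site (TGANTCA, in 4.24%) or a full cAMP response element (TGACGTCA, in 1.36%).

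In the zone Sema3d had 36.9 CPM at 3 days and 27.1 CPM at 28 days, while the mirror zone had 8.75 and 10.1 CPM. The log2 ratios were 2.07 (1.67 to 2.49) and 1.41 (1.04 to 1.81). Sema3d was therefore the class 3 member with the highest ratio at 3 days, but across the fitted axis it stood at 1.79 (1.38 to 2.23), below Sema3b at 2.21. The lateral and the medial part of the zone both had Sema3d ratios above 0 at each time (1.79 and 2.27 at 3 days, 1.17 and 1.51 at 28 days). Sema3c stood at 20.6 against 31.1 CPM at 3 days and 55.6 against 24.4 CPM at 28 days, ratios of -0.59 (-0.94 to -0.26) and 1.19 (0.94 to 1.44). Its zone level was higher in the 28 days section and its mirror level was lower there, and both parts of the zone had ratios of the same sign within each section. Sema3e was lower at both times, at 33.3 against 82.7 CPM and 22.9 against 57.2 CPM, with ratios of -1.31 (-1.57 to -1.07) and -1.32 (-1.59 to -1.06). Against opposite-side cortex in place of the mirror zone, the 3 days ratio of Sema3e was 0.70.

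Sema3g, a semaphorin of arterial endothelium, stood at 19.4 against 5.998 CPM at 3 days and 9.08 against 15.8 CPM at 28 days. The ratios of 1.69 (1.18 to 2.22) and -0.79 (-1.25 to -0.35) differed by -2.48 (-3.14 to -1.82), the lowest time difference among the members. Across the fitted axis the difference was -1.82 (-2.46 to -1.18), and Ephb4 stood lower, at -2.28. At 3 days the Sema3g signal lay in the medial part of the zone, with a ratio of 2.83 there and -0.17 in the lateral part. Sema3f moved in the same order, from 0.91 (0.60 to 1.22) to -0.58 (-0.95 to -0.23). Sema3b stood at 13.3 against 7.87 CPM and 13.6 against 3.00 CPM, with ratios of 0.75 (0.24 to 1.27) and 2.15 (1.52 to 2.88). At 3 days its lateral part stood at -0.93 (-1.81 to -0.16) and its medial part at 2.52 (1.70 to 3.50), and at 28 days both lay above 0, at 1.78 and 2.31. Across the fitted axis Sema3b was called higher at 3 days, at 12.8 against 2.71 CPM (2.21, 1.46 to 3.11). The zone level of Sema3b was alike in both sections and its mirror level was not, and against the whole opposite side its time difference turned from 1.40 to -0.31. Sema3a, a repellent of many axons, stood at 20.02 against 26.7 CPM at 3 days, a ratio of -0.41 (-0.77 to -0.07). At 28 days it was called lower, at 14.5 against 30.7 CPM (-1.07, -1.42 to -0.74). Across the fitted axis this turned, with Sema3a called lower at 3 days (-1.29, -1.64 to -0.97) and not at 28 days (-0.94, -1.29 to -0.60).

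The membrane-bound semaphorins of class 4 had summed ratios of 0.57 (0.50 to 0.65) and 0.56 (0.50 to 0.63). Sema4d, which signals through Plxnb1 and is known from oligodendrocytes and immune cells, stood at 322 against 149.7 CPM at 3 days and 338 against 162 CPM at 28 days. Its ratios were 1.11 (0.998 to 1.22) and 1.06 (0.97 to 1.16), with a time difference of -0.04 (-0.19 to 0.10). Sema4c was called higher at 3 days, at 54.5 against 21.7 CPM (1.32, 1.05 to 1.61), and had a ratio of 0.88 (0.59 to 1.18) at 28 days. Bins rich in phagocyte markers led for Sema4c in both sections, and phagocyte genes placed the zone. Sema4a and Sema4b had ratios between 0.02 and 0.63, and Sema4f had ratios of -0.80 and -0.76. Sema4g moved from -0.79 (-1.04 to -0.55) to 0.14 (0.00 to 0.28).

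In classes 5 to 7, Sema5a, Sema6b, Sema6c and Sema7a were each called lower at 1 or both times and none was called higher. Sema5a stood at 57.7 against 135 CPM and 42.9 against 99.8 CPM, with ratios of -1.23 (-1.42 to -1.04) and -1.22 (-1.41 to -1.03). Against opposite-side cortex these ratios turned to 1.05 and 0.68. Sema7a, a membrane-anchored semaphorin that binds integrins and Plxnc1, stood at 155 against 235 CPM at 3 days and 110.1 against 242 CPM at 28 days. Its ratio was -0.60 (-0.73 to -0.48) in the earlier section. In the later one it was called lower, with a ratio of -1.13 (-1.26 to -1.01). Sema6b and Sema6c were called lower at 3 days (-1.18 and -1.08), Sema6a moved from 0.88 (0.66 to 1.09) to -0.45 (-0.63 to -0.28), and Sema6d had ratios of 0.59 and 0.15. Sema5b, with few UMIs, was not called at either time.

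Among the receptors for semaphorins, the B plexins and Plxnd1 were called higher and Plxna4 lower at 3 days. Plxnb2, a receptor for class 4 semaphorins found in microglia, stood at 96.7 against 38.7 CPM at 3 days and 108 against 26.5 CPM at 28 days. The ratios were 1.32 (1.11 to 1.53) and 2.02 (1.81 to 2.25), and both parts of the zone lay between 1.12 and 2.00. Plxnb1 stood at 101 against 43.2 CPM at 3 days, a ratio of 1.22 (1.02 to 1.42). The 28 days section had 114 against 60.6 CPM, a ratio of 0.91 (0.75 to 1.08). Plxnb3, the plexin of oligodendrocytes, fell short of the call at 28 days, with ratios of 1.66 (1.47 to 1.86) and 0.62 (0.44 to 0.81). Plxnd1 had a ratio of 1.56 (1.27 to 1.87) at 3 days and 0.64 (0.36 to 0.92) at 28 days, but at 3 days the ratio was -0.0274 against the whole opposite side and -0.83 against opposite-side cortex. Plxna4, a co-receptor for Sema3a, was called lower at 3 days (-1.36, -1.63 to -1.11) and stood at -0.85 (-1.10 to -0.60) at 28 days. Plxna1, Plxna2, Plxna3 and Plxnc1 had ratios between -0.87 and 0.54, and none was called.

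In the zone Nrp1 had 32.3 CPM at 3 days and 47.5 CPM at 28 days, while the mirror zone had 56.5 and 23.9 CPM. The ratios were -0.80 (-1.07 to -0.54) and 0.99 (0.73 to 1.25), which differed by 1.79 (1.43 to 2.16). Mirrored across the fitted axis, the 3 days ratio was 0.06 (-0.25 to 0.36), not below 0, and the 28 days ratio was 0.89 (0.64 to 1.15). Both its zone level and its mirror level differed between the sections. Nrp1 was highest in hippocampal tiles of the opposite side, which made up more of the 3 days mirror zone, and the part of this in the difference was not tested. Bins rich in fibroblast markers led for Nrp1 at 3 days (67.6 against 21.0 CPM) and phagocyte-rich bins at 28 days (66.5 against 21.3 CPM). Of the 2000 phagocyte-rich bins at 28 days, 1831 lay in the zone, which phagocyte genes placed. Their part in the Nrp1 ratio was not tested either. In the lateral part of the zone the Nrp1 ratio was above 0 at both times (0.62 and 2.02), and in the medial part it was -1.30 at 3 days and 0.46 at 28 days. Nrp2 had ratios of 0.58 (0.32 to 0.84) and 1.13 (0.83 to 1.45) and was called higher at 28 days. Across the fitted axis it was called higher at 3 days too, at 1.54 (1.21 to 1.90), and the 28 days ratio was 1.13 (0.83 to 1.45), so no rise with time was seen there. The lateral part stood at 1.89 and 2.24, and the medial part at 0.25 and 0.38.

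The A ephrins, anchored by a lipid tail, split by member. Efna3 was called lower at both times, at 24.4 against 50.4 CPM (-1.04, -1.35 to -0.75) and 17.0 against 46.8 CPM (-1.45, -1.76 to -1.16). Efna5 was called lower at 3 days (-1.10), and Efna1 was called higher at 28 days (1.05, 0.45 to 1.68). Efna2 and Efna4 had few UMIs and were not called. The transmembrane B ephrins all had ratios above 0 at 3 days, and none was called at 28 days. Efnb3 stood at 319 against 146 CPM at 3 days and 192 against 213 CPM at 28 days, ratios of 1.13 (1.02 to 1.24) and -0.15 (-0.25 to -0.05). Efnb2, the ephrin of arteries, went from 0.70 (0.38 to 1.02) to -0.97 (-1.33 to -0.62). Efnb1 had ratios of 0.71 and 0.18.

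The EphA receptors had the lowest summed ratio of the 15 families at both times. Summed over the family, the 3 days ratio was -1.97 (-2.07 to -1.87) and the 28 days ratio was -1.38 (-1.47 to -1.29). The interval at 28 days overlapped that of the Slits (-1.49 to -1.10). Epha3, Epha4, Epha5, Epha6 and Epha7, and also Slit1, were highest in hippocampal tiles of the opposite side. The hippocampus held 0.203% of the zone and 17.8% of the mirror zone at 3 days, and 2.15% and 4.50% at 28 days. Its part in these ratios was not tested. By member, 7 of 8 were called lower at 3 days (background 8.71% of all genes) and 6 of 8 at 28 days (background 8.05%). Epha6 stood at 30.9 against 219 CPM at 3 days and 46.7 against 145 CPM at 28 days. Its ratios of -2.82 (-3.07 to -2.59) and -1.64 (-1.82 to -1.46) differed by 1.18, but mirrored across the fitted axis the difference was 0.04 (-0.25 to 0.33). At 3 days its medial part stood at -3.37 and its lateral part at -0.69. The other EphA members that were lower at 3 days had the same order apart from Epha10. Lateral and medial ratios were -0.69 and -2.51 for Epha4, -0.64 and -1.97 for Epha5, -0.25 and -2.82 for Epha7, -0.22 and -3.26 for Epha8, and 0.11 and -2.31 for Epha3, while Epha10 stood at -1.87 and -0.61. In the lateral part at 3 days Epha10 was thus the one of these 7 lower by 2-fold. At 28 days the lateral ratios of Epha4, Epha6, Epha7, Epha8 and Epha10 were below -1, Epha5 stood at -0.19 and Epha3 at 0.01. Epha4, a receptor that binds ephrins of both classes, stood at 39.6 against 153 CPM and 46.8 against 128 CPM, with ratios of -1.95 (-2.17 to -1.74) and -1.45 (-1.64 to -1.28). Epha7 had ratios of -1.99 and -1.45, Epha5 of -1.77 and -0.93, and Epha3 of -1.83 and -1.05. With the fitted axis some 3 days deficits were smaller, at -1.69 for Epha6, -1.52 for Epha4, -1.09 for both Epha5 and Epha7 and -0.78 for Epha3. Those of Epha8 (-1.98) and Epha10 (-1.45) were larger. Epha8 had ratios of -1.43 and -2.03, the second of which was 0.0424 against opposite-side cortex. Epha10 stood at -1.15 and -1.02.

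Epha2 was the exception. This receptor for Efna1 stood at 11.5 against 2.25 CPM at 3 days and 3.91 against 2.38 CPM at 28 days, from 58 and 18 UMIs and from 28 and 19 UMIs. Its ratios were 2.33 (1.57 to 3.20) and 0.71 (-0.17 to 1.64). Bins rich in phagocyte markers led for Epha2 at 3 days, at 19.7 against 2.11 CPM in all other bins. Mural-rich bins led at 28 days, at 16.3 against 1.86 CPM. Phagocyte genes placed the zone, and their part in the 3 days ratio of Epha2 was not tested. Epha1 had under 20 UMIs over both areas at each time and was not compared. Of the EphB receptors, Ephb4, the partner of Efnb2 on veins, was called higher at 3 days, at 21.2 against 6.87 CPM (1.62, 1.14 to 2.12), and stood at 0.60 (0.12 to 1.10) at 28 days. Across the fitted axis Ephb4 stood at 20.1 against 2.55 CPM at 3 days (2.94, 2.21 to 3.84). Ephb1 moved from 0.59 (0.43 to 0.76) to -0.28 (-0.45 to -0.10), and Ephb2, Ephb3 and Ephb6 had ratios between -0.99 and -0.34 and were not called.

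All 3 Slits, secreted repellents, were called lower at 3 days (background 8.71% of all genes) and 2 of them at 28 days (background 8.05%). Slit1 stood at 30.3 against 118 CPM and 17.0 against 45.7 CPM, ratios of -1.96 (-2.22 to -1.71) and -1.42 (-1.73 to -1.12), with a 3 days ratio of -1.06 across the fitted axis. Slit3 had ratios of -1.08 and -1.65, but across the fitted axis it was not called at 3 days (-0.27, -0.61 to 0.06). Slit2 went from -1.77 (-2.17 to -1.41) to -0.47 (-0.89 to -0.07), a difference that was -0.0675 against the whole opposite side. Their receptors Robo1 and Robo2 were called lower at 3 days (-1.07 and -1.02) and stood at -0.83 and -0.94 at 28 days. At 3 days Robo1 stood at 0.15 (-0.13 to 0.43) in the lateral part and -1.99 (-2.31 to -1.70) in the medial part, and Robo2 at -0.77 and -1.29. Robo4, the endothelial member, was called higher at 3 days, at 12.3 against 3.50 CPM (1.80, 1.15 to 2.51), and stood at -0.01 (-0.65 to 0.63) at 28 days.

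Ntn1 and Ntn4 were called higher at 3 days (background 17.2% of all genes). Of the 4 Unc5 receptors, which mediate repulsion from netrins, 3 were called lower (background 8.71%) and Unc5b higher. Ntn1, the classical netrin of the midline, had 23.6 against 7.25 CPM at 3 days (1.70, 1.24 to 2.18). In the 28 days section it had 16.6 against 9.51 CPM (0.80, 0.38 to 1.24). Ntn4, a netrin of basement membranes, had ratios of 1.44 (0.87 to 2.05) and 0.81 (0.31 to 1.32). Ntn3 and Ntn5 were not called. Unc5a was called lower at both times, at 81.4 against 201 CPM (-1.31) and 48.2 against 109.9 CPM (-1.19), and Unc5c and Unc5d were called lower at 3 days (-1.12 and -1.18). Unc5b stood at 87.8 against 34.2 CPM at 3 days and 56.2 against 65.2 CPM at 28 days, ratios of 1.36 (1.14 to 1.58) and -0.22 (-0.41 to -0.03). Across the fitted axis Ntn4 (0.96), Unc5b (0.84) and Unc5c (-0.72) were not called at 3 days, while Ntn1, Unc5a and Unc5d kept their calls. Ntn4 was called higher there at 28 days (1.12).

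Comparing the 2 sections, some members had a time difference of at least 2-fold with an interval excluding 0. Of the 66 members compared, 5 (7.58%) had a higher ratio at 28 days than at 3 days, near the background of 7.18% of all genes. These 5 were Nrp1, Sema3c, Sema3b, Slit2 and Epha6. The 10 with a lower one (15.2%, background 5.50%) were Sema3g, Robo4, Efnb2, Epha2, Unc5b, Sema3f, Sema6a, Efnb3, Plxnb3 and Ephb4. The difference rests on 1 animal per time and on mirror zones of unlike makeup. Mirrored across the fitted axis, 2 of the 5 (Sema3c and Slit2) and 6 of the 10 (Sema3g, Robo4, Epha2, Unc5b, Sema6a and Ephb4) were still called. Nrp1 then differed by 0.83 (0.44 to 1.22), Sema3b by 1.02 (-0.15 to 2.18), Sema3f by -0.33 (-0.80 to 0.14) and Ephb4 by -2.28 (-3.17 to -1.39).

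The maps show where these signals lay. Sema3d followed the surface of the brain and the zone, Plxnb2 the zone and the choroid plexus, and Unc5b the fibre tracts. Epha6 marked the hippocampus of the opposite side and was at a low level within the zone. Over the injured side as a whole, Epha6 was lower at 3 days alone. It stood there at 74.0 CPM against 138 CPM on the mirrored part of the opposite side (-0.90). At 28 days the sides were level, at 114 against 116 CPM (-0.02, -0.08 to 0.04). Ntn5, in contrast to the others, formed a band in the outer cortex.

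**Figure D2:**
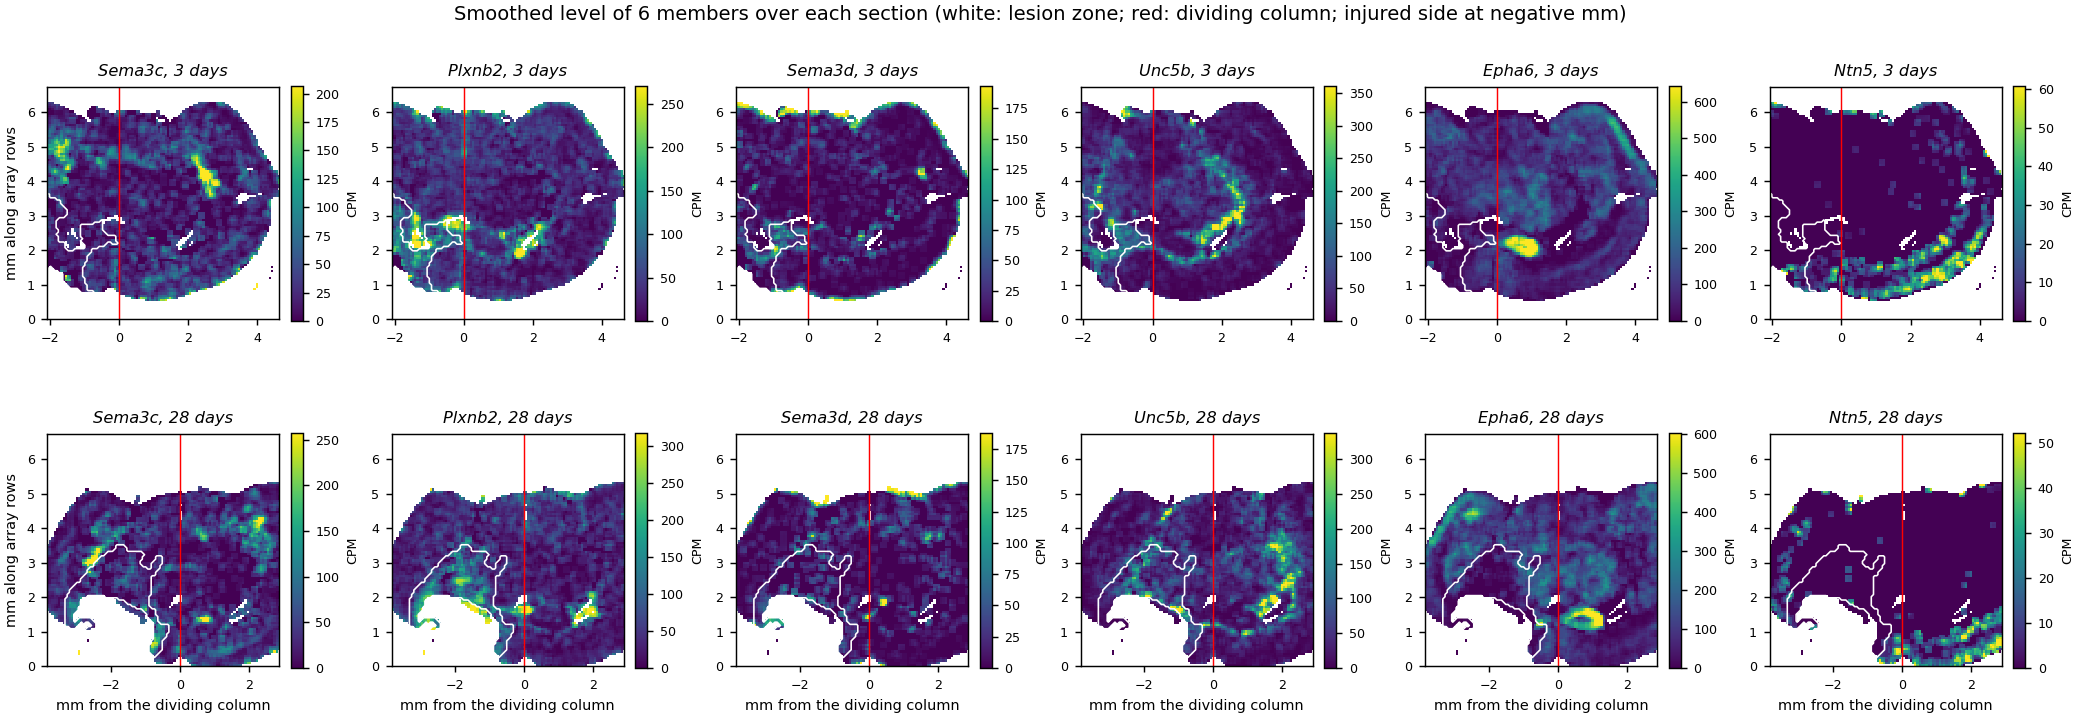
Level of 6 members in 64 µm tiles smoothed over 3 by 3 tiles, in CPM, with a colour scale of its own for each panel. Axes are mm from the dividing column (red line, injured side at negative values) and mm along the array, and the white line surrounds the lesion zone. Plxnb2 and Sema3d are bright within the outline and Epha6 is dark.

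Outside the zone, mirrored across the dividing column, the number of members called fell with distance at 3 days, and so did the share of all genes called. The axis fitted at 3 days lay 288 µm from that column, more than the width of the first band. The counts are not given across that axis. Within 250 µm of the zone 10 members were called higher at 3 days, where the background was 13.3%, and 10 lower, where the background was 3.67%. From 250 to 500 µm there were 5 (background 5.67%) and 3 (background 1.29%), from 500 to 1000 µm 1 (background 2.74%) and 1 (background 0.571%), and beyond that none (backgrounds 0.698% and 0.510%). At 28 days the first band held 3 called higher (background 6.64%) and none lower (background 0.582%). The second held 2 and none (backgrounds 2.07% and 0.628%), the third none and 2, Ntn5 and Sema7a (backgrounds 1.34% and 1.30%), and the last none (backgrounds 0.670% and 1.09%).

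Plxnb2 reached beyond the zone. At 3 days its ratio was 1.44 within 250 µm, 0.92 from 250 to 500 µm, 0.60 from 500 to 1000 µm and 0.04 beyond, and at 28 days it was 1.11, 0.09, 0.11 and -0.24. Plxnb2 is led by choroid plexus-rich bins, and the choroid plexus list had median ratios of 4.25 within 250 µm, 1.98 from 250 to 500 µm, 0.31 from 500 to 1000 µm and 0.27 beyond at 3 days, and of 3.04, -0.23, 0.74 and -0.11 at 28 days, whose part in the Plxnb2 values was not tested. Across the fitted axis the 3 days ratios of Plxnb2 were 1.49, 0.76, 0.55 and 0.08, beside list medians of 1.97, 5.12, 0.93 and 0.58. Its 28 days ratios were 1.10, 0.02, 0.07 and -0.29, beside 2.94, -0.13, 0.94 and -0.25. Mirrored across the dividing column, Epha4 approached 0 with distance at 3 days, from -1.53 through -1.06 and -0.77 to -0.42. At 28 days it lay between -0.65 and -0.12 in all bands. Epha6 at 28 days was -0.45 in the first band and 0.29, 0.51 and 0.67 in the others. Sema3c, higher in the zone at 28 days, stood at 0.29, -0.33, -0.79 and -0.62 in the bands outside it. Sema7a had its lowest 28 days ratio from 500 to 1000 µm, at 63.0 against 156 CPM (-1.31, -1.45 to -1.16). Across the fitted axis that ratio was -1.36. Sema3b was the highest member within 250 µm of the zone at both times, at 50.7 against 6.22 CPM (3.01, 2.59 to 3.49) and 28.5 against 3.09 CPM (3.19, 2.67 to 3.78). Mirrored across the fitted axis, these ratios were 1.88 and 2.97. It was also the member with the highest ratio in bins rich in choroid plexus markers.

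**Figure D3:**
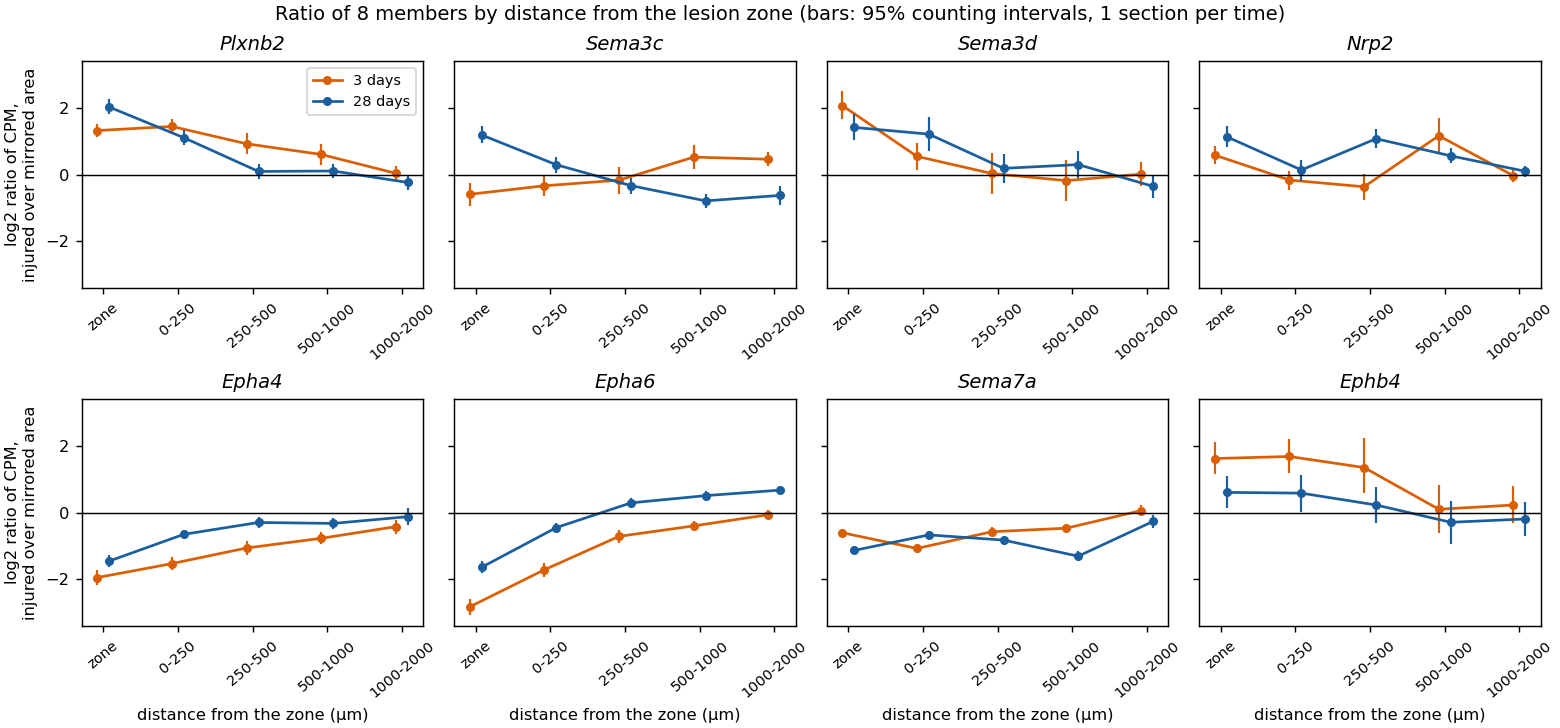
Log2 ratio of CPM, injured over mirrored area, for 8 members in the lesion zone and in 4 bands of distance from it (µm), at 3 days (orange) and 28 days (blue), 1 section each, with 95% counting intervals. Areas are mirrored across the dividing column. Plxnb2 and Epha4 approach 0 with distance from above and below, and Sema7a is lowest in the third band at 28 days.

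By side few members differed. The array edge cut the injured side at 3 days, so the opposite side was limited to the mirrored columns, which held 41804 of its 80501 bins, and at 28 days all 53838 bins of the opposite side were used. At 3 days 2 were called higher on the injured side (background 6.43%), Sema3b at 15.9 against 7.53 CPM (1.08) and Epha2 at 3.59 against 1.71 CPM (1.06), and 2 lower (background 0.976%), Epha4 at 45.3 against 104 CPM (-1.20) and Ntn5 at 1.92 against 4.23 CPM (-1.14). All 6 choroid plexus genes were also higher on the injured side at 3 days, with a median ratio of 2.05, and their part in the Sema3b value was not tested. The excitatory neuron list had a median ratio of -1.13 there, with 4 of its 6 genes called lower. Its part in the Epha4 and Ntn5 values was not tested. At 28 days no member was called higher (background 6.12%) and Ntn5 alone was lower (background 0.435%), at 3.07 against 6.38 CPM (-1.05, -1.38 to -0.74).

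On the opposite side most members had the same leading region in both animals. Tiles were assigned to 7 regions by marker lists, and 52 of 67 members had the same top region in both sections, 26 of them with intervals apart from the second region in both. The hippocampus led for Epha3, Epha4, Epha5, Epha6, Epha7, Nrp1, Plxna4, Sema5a and Slit1. Epha6 had a hippocampal level of 385 CPM and a cortical level of 109.6 CPM at 3 days, which were 398 and 70.9 CPM at 28 days. Nrp1 stood at 91.0 and 69.7 CPM in hippocampus and at 11.8 and 13.8 CPM in cortex. The cortex led for Efna5, Ephb3, Ephb6 and Ntn5, the last at 14.8 and 17.0 CPM in cortex and at most 2.61 CPM in any other region. The thalamus led for Epha8 and Sema4g, and the hypothalamus for Plxnc1 and Sema4a. White matter led for Efnb3, Plxnb3, Sema4d, Sema6d and Unc5b. Efnb3 stood at 583 and 421 CPM in white matter and at 52.9 and 43.0 CPM in cortex. Choroid plexus tiles led for Ephb4, Ntn4, Plxnb2 and Sema3b, with Sema3b at 129 and 160.2 CPM.

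**Figure D4:**
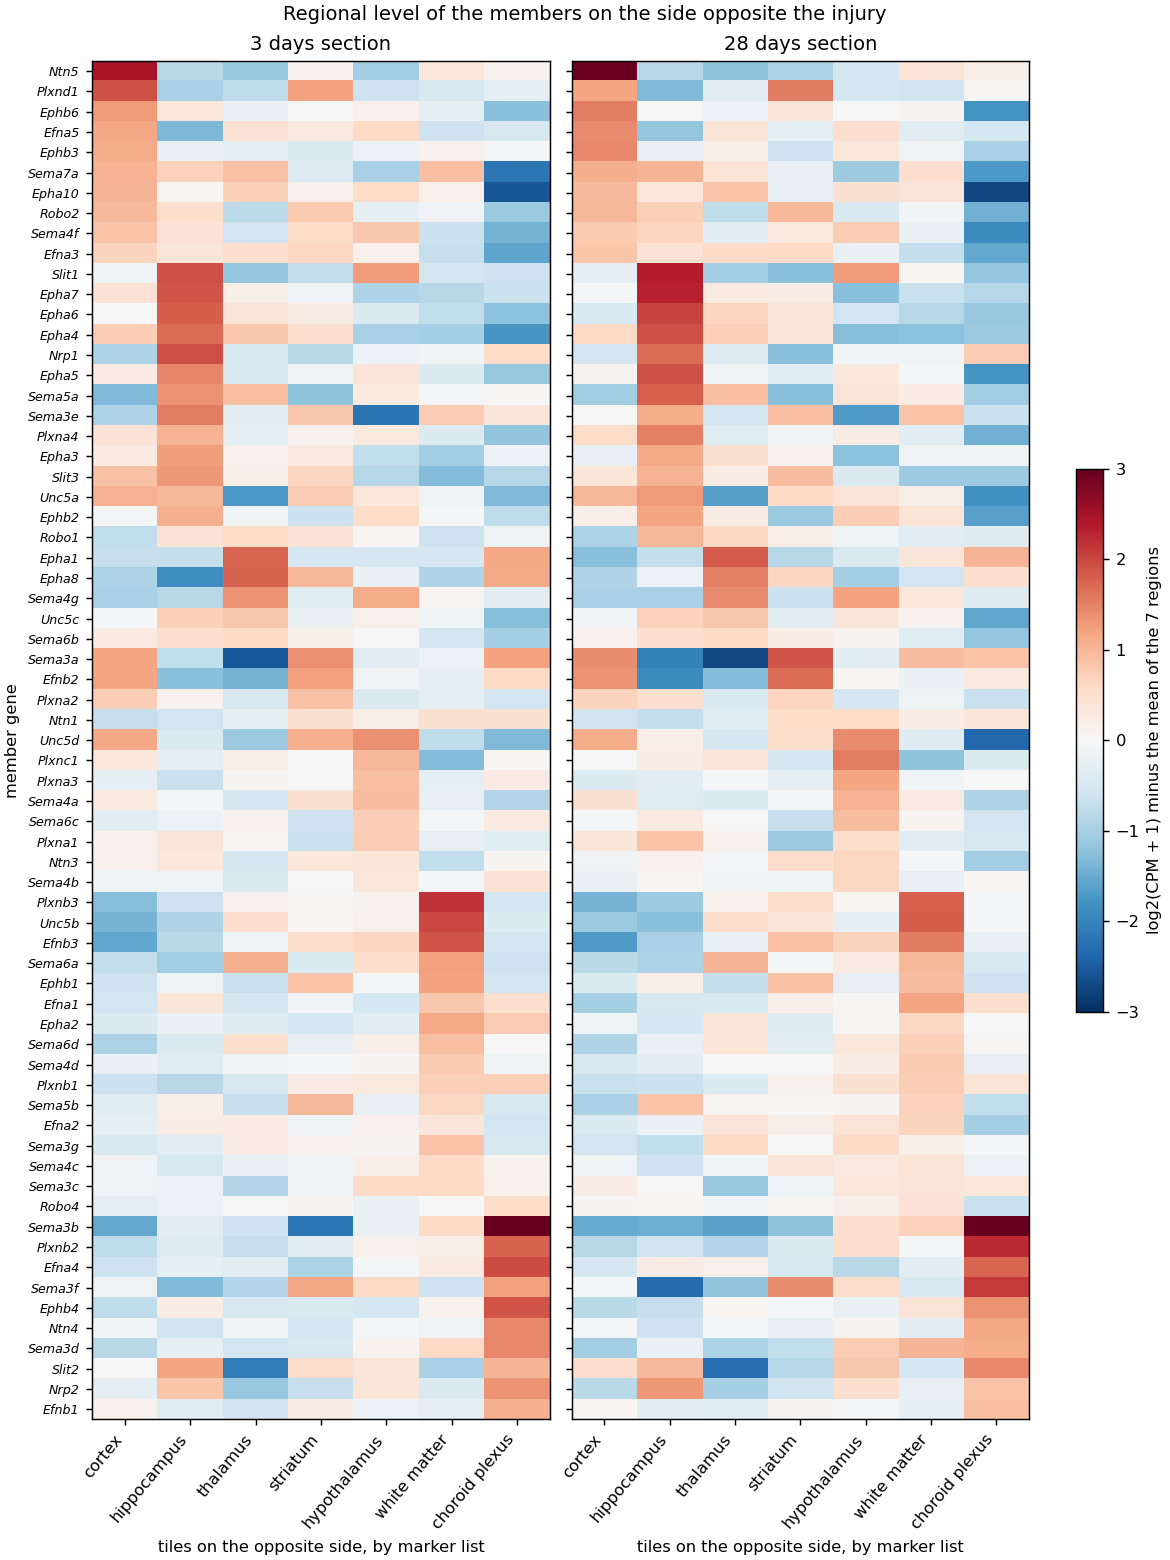
Level of each member in 7 regions of the opposite side, as log2(CPM + 1) minus the mean of the 7 regions, at 3 days (left) and 28 days (right), 1 section each. Red is above and blue below the gene's own mean. The block of EphA genes is red in hippocampus, and Efnb3, Plxnb3 and Unc5b are red in white matter, in both sections.

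Bins rich in the markers of a cell type showed a similar grouping, with the same leading list in both sections for 44 of 67 members. Oligodendrocyte-rich bins led, at 2-fold or more in both, for Efnb3, Ephb1, Plxnb3, Sema4d, Sema6a, Sema6d and Unc5b. In them Plxnb3 had a level of 298 CPM at 3 days, where all other bins had 34.3 CPM, and the levels were 259.5 and 33.0 CPM at 28 days. Mural-rich bins led for Efna1, Efnb2, Ntn4 and Sema3g, with Sema3g at 207 against 8.61 CPM and 253 against 8.42 CPM. Fibroblast-rich bins led for Efnb1, Ephb4, Nrp2 and Sema3d, the last at 139 against 12.2 CPM and 93.6 against 11.8 CPM. Choroid plexus-rich bins led for Efna4, Plxnb2, Sema3b, Sema3f and Slit2, inhibitory neuron-rich bins for Sema3e and Sema7a, astrocyte-rich bins for Plxnb1 and phagocyte-rich bins for Sema4c. Robo4 had its highest ratio in endothelial-rich bins at 3 days, at 49.9 against 4.07 CPM, and in mural-rich bins at 28 days, at 29.7 against 4.47 CPM, where endothelial-rich bins had 26.5 against 4.31 CPM.

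**Figure D5:**
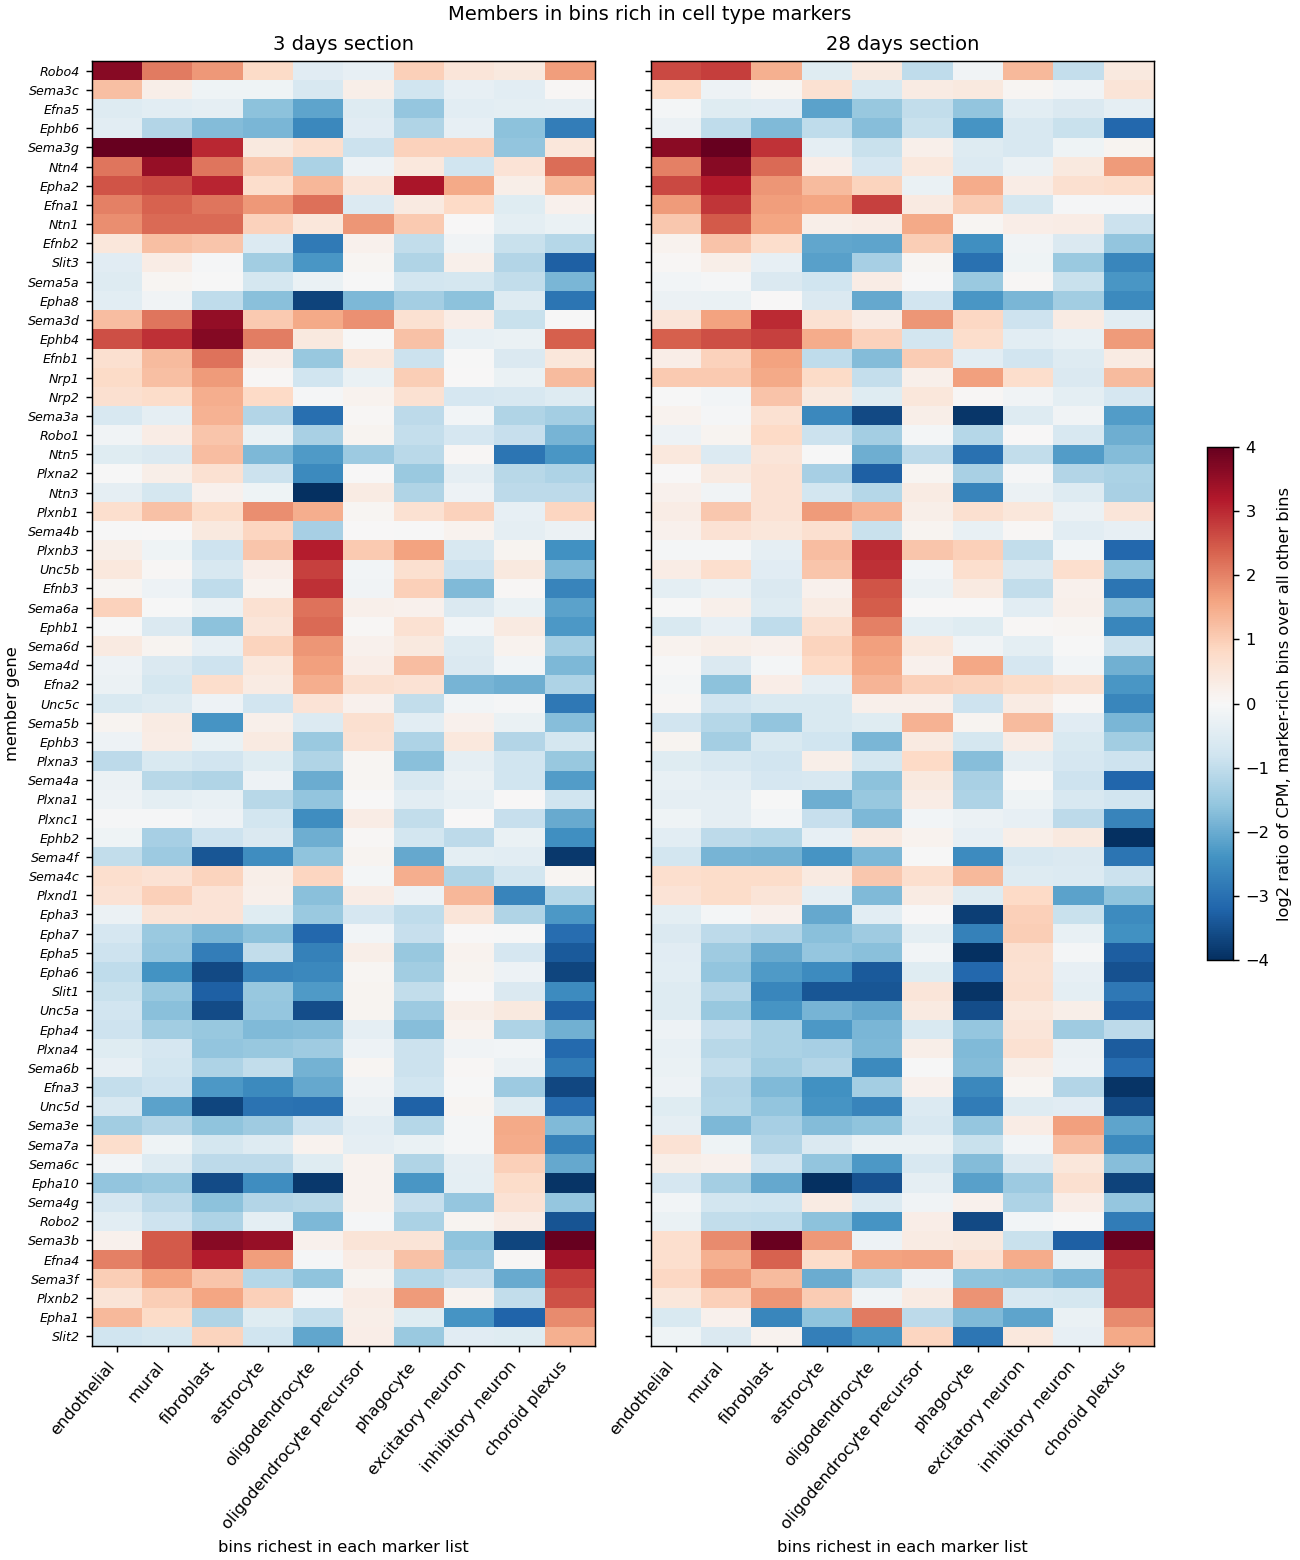
Log2 ratio of CPM, bins richest in a marker list over all other bins, for each member and 10 cell type lists, at 3 days (left) and 28 days (right), 1 section each. Red is higher and blue lower. Plxnb3, Unc5b, Efnb3, Sema6a and Ephb1 are red in the oligodendrocyte column in both sections, and Sema3g is red in the endothelial and mural columns.

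The 7 members led by oligodendrocyte-rich bins had a median zone ratio of 1.11 at 3 days, with 4 called higher (background 17.2% of all genes). At 28 days their median was -0.15, with 1 called higher (background 16.3%). The oligodendrocyte list had medians of 1.55 at 3 days and 0.03 at 28 days. When both areas were limited to bins at or below the median myelin gene share of the mirror zone, the 3 days ratio of Efnb3 was 0.49 (0.16 to 0.81), of Plxnb3 0.83 (0.23 to 1.40), of Sema4d 0.71 (0.50 to 0.91) and of Unc5b 1.44 (0.88 to 1.99). Efnb3, Plxnb3 and Sema4d were thus no longer called and Unc5b still was. At 28 days Sema4d stood at 1.35 (1.21 to 1.49) in these bins, and Plxnb2 at 2.17 (1.90 to 2.45). In these bins 18 members were called higher (background 18.7%) and 12 lower (background 5.89%) at 3 days, among them 12 of the 15 higher and 10 of the 22 lower ones of the whole zone. The lower calls kept were those of Epha3, Epha4, Epha5, Epha6, Epha7, Sema5a, Slit1, Slit2, Unc5c and Unc5d, with Epha6 at -2.98. Efna3 (-0.40), Efna5 (-0.31), Slit3 (-0.59), Epha10 (-0.70), Robo1 (-0.76), Unc5a (-0.77), Robo2 (-0.78), Plxna4 (-0.89), Sema6c (-0.89), Epha8 (-0.90), Sema3e (-0.90) and Sema6b (-0.91) were not called there. At 28 days 10 were called higher (background 17.9%) and 11 lower (background 7.62%). All 7 higher members of the whole zone and 11 of its 14 lower ones were among them, and Epha10 (-0.94), Epha3 (-0.88) and Sema3a (-0.85) fell just short of 2-fold. The limit kept 2293 zone and 4279 mirror bins at 3 days, and 6229 and 6228 at 28 days. In the mirror bins kept at 3 days Epha6, Epha4 and Slit1 stood at 275, 187 and 145 CPM. The whole mirror zone had 219, 153 and 118 CPM. The part of tissue makeup in the kept calls was not tested.

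Of 32 other axon guidance genes listed, 31 were measured well enough in the zone. At 3 days Mical1 and Met (6.45% of the 31) were called higher, where the background was 17.2%, and Dscam, Crmp1 and Mical2 (9.68%) lower, near the background of 8.71%. At 28 days Mical1 and Met were higher (background 16.3%), and Dcc, Flrt1, L1cam, Mical2 and Ngef (16.1%) lower (background 8.05%). Mical1, an enzyme that disassembles actin downstream of plexins, stood at 30.5 against 9.87 CPM (1.62, 1.23 to 2.04) and 33.8 against 7.89 CPM (2.09, 1.69 to 2.52). Dcc, the attractive netrin receptor, stood at 10.9 against 15.5 CPM (-0.50, -0.99 to -0.04) and 6.99 against 18.3 CPM (-1.38, -1.88 to -0.91). The median of the list was -0.30 at 3 days and -0.43 at 28 days, beside -0.44 and -0.38 for the members.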

How the data were processed

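Visium HD libraries were made by the authors from 10 µm sections of paraformaldehyde-fixed, paraffin-embedded brain with mouse probe set 2.0 and processed with Space Ranger (4.0.1 per the file headers), on genome build mm10 per the submitters' processing notes. The deposited values are raw UMI counts per gene and 16 µm bin. Members and gene lists were chosen with earlier results of these data known. Bins under 100 UMIs were left out (1.93% and 2.15%). Tiles of 4 by 4 bins were smoothed over 5 by 5 tiles, and patches of at least 25 tiles formed the zone (Cd68, Lyz2, Ctsz, Lgals3, Cd52, Laptm5). Counts were summed per area, and log2 ratios (pseudocount 0.5 UMI, genes with at least 20 UMIs over both areas) were given exact conditional binomial 95% intervals. Time differences have Wald intervals. Named members are the 12 highest and 12 lowest zone ratios of either section among members with at least 100 UMIs, plus those with a called time difference. Regions needed a mean z score of 0.5, and marker-rich bins were up to 2000 per list with the highest share and at least 2 UMIs of the list (1118 to 1524 bins for oligodendrocyte precursors, choroid plexus and, at 28 days, fibroblasts). The step was tested on simulated data. Sequences came from RefSeq tables (GRCm38.p6), which matched 67 members by gene and 58 by promoter. Python 3.11.15, numpy 2.4.6, scipy 1.17.1 and, for TMM factors, edgeR 4.0.16 were used.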

Additional observations from a re-analysis of the deposited data

Results flagged for a closer look

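The zone ratios of 10 members had counting intervals on opposite sides of 0 in the 2 sections, which drew attention to their time difference (28 days minus 3 days, log2). The share of all genes with such intervals was not counted, so 10 cannot be read as many or few. The difference between the time points was not tested, since each is 1 animal. It was -2.48 for Sema3g, -1.67 for Efnb2, -1.57 for Unc5b, -1.49 for Sema3f, -1.33 for Sema6a, -1.28 for Efnb3 and -0.87 for Ephb1. It was 1.79 for Nrp1, 1.78 for Sema3c and 0.93 for Sema4g. Of the first 7, Efnb3, Ephb1, Sema6a and Unc5b were led by oligodendrocyte-rich bins, and the oligodendrocyte list had median zone ratios of 1.55 and 0.03. Efnb2 and Sema3g were led by mural-rich bins, and the mural list had medians of 1.28 and 0.93. Sema3f was led by choroid plexus-rich bins, and that list had medians of -1.19 and -1.05, or 1.47 and 0.80 across the fitted axis. Nrp1 was led by fibroblast-rich bins at 3 days and phagocyte-rich bins at 28 days, and the phagocyte list had medians of 2.03 and 4.42. Sema3c was led by endothelial-rich bins at both times, and that list had medians of 1.79 and 0.56. Sema4g was led by inhibitory neuron-rich bins at 3 days and astrocyte-rich bins at 28 days. The part of these lists in the differences was not tested. Mirrored across the fitted axis, the differences were -0.33 (-0.80 to 0.14) for Sema3f, -0.85 for Efnb2, -0.77 for Efnb3 and 0.83 for Nrp1. The intervals then lay on opposite sides of 0 for 6 of the 10 members and not for Efnb2, Nrp1, Sema3f and Sema4g.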

How the results depend on the processing

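Of 150 alternative counts of members, 116 stayed within 1.5 times the reported count and 34 did not, and of 768 alternative values of named called members 10 turned sign; the cause was not tested. In the zone at 3 days (15 higher, 22 lower), UMIs per bin gave 6 and 35, and 12 were lower with the zone at the 95th percentile and, an alternative chosen after seeing the data, in bins at or below the median myelin share. At 28 days (7 and 14), UMIs per bin gave 3 and 24, the whole opposite side 22 lower, the 95th percentile 4 higher and cortex tiles 19 higher. TMM scaling shifted all ratios by -0.18 and -0.06. For sides at 3 days (2 and 2), TMM gave 0 higher, the line 10 bins towards the injured side 0 and 1, the line away 1 higher, bins with a mirror bin 0 and 1, and the whole opposite side 4 higher. At 28 days (0 and 1), TMM and UMIs per bin each gave 2 lower, the line towards 0 lower, the line away 1 higher, and bins with a mirror bin 1 and 0. Within 250 µm at 3 days (10 and 10), the line towards gave 6 higher and the 95th percentile 3 and 3, and at 28 days (3 and 0) UMIs per bin gave 1 and 1 and the 95th percentile 1 higher. Time differences (5 and 10) became 12 and 6 per bin, 2 higher against the whole opposite side and against cortex tiles, 4 lower at the 95th percentile, and 11 higher with a zone placed by Gfap, Vim and Serpina3n. The share of all genes called was counted for UMIs per bin, the myelin limit and the fitted axis, in the zone alone. For the other counts it was not, so their changes are not results about the members.

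Against the whole opposite side the sign turned for Plxnd1 at 3 days (-0.0274) and for the time differences of Sema3b (-0.31) and Slit2 (-0.0675). Against cortex tiles it turned for Plxnd1 (-0.83), Sema3e (0.70) and Sema5a (1.05) at 3 days, Epha8 (0.0424) and Sema5a (0.68) at 28 days, and the time differences of Sema3b (-0.0145) and Slit2 (-0.40). A fitted symmetry axis lay 288 µm from the dividing column at 3 days and -32 µm at 28 days, with tilts of 1 and 2 degrees. The 3 days mirror zone may therefore be offset, and by the tilt parts of the 28 days one too. Mirroring across the fitted axis moved 26 of 39 named zone ratios at 3 days, 4 of 39 at 28 days and 23 of 39 time differences beyond their intervals, with no called value turning sign.

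Counting intervals are widest for members with few UMIs, such as Epha2, Epha3 and Ntn5. No paired analysis was possible because each time point is 1 section of 1 animal.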
